A study of Homo sapiens with 12 samples.

Results

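Mature miRNAs were compared inside miR-122 knockout cells and control cells, both derived from MDA-MB-231, a mesenchymal-like human breast cancer line that lacks the estrogen, progesterone and HER2 receptors. The comparison rests on the 4 of 12 small RNA libraries that hold cellular RNA of these lines, 2 of knockout cells and 2 of control cells, and on all 2588 mature miRNAs in the count table. The knockout line was made with CRISPR-Cas9 and 2 guide RNAs against MIR122, the gene of miR-122. The control line had received the empty vector of a lentiviral short hairpin RNA (shRNA) system by stable transduction. The labels do not say whether the knockout line is a clone, nor whether it also holds an empty vector, so loss of miR-122 and the making of the line cannot be told apart. Values of a line with a stable knockdown of RAB27A, a small GTPase needed for vesicle secretion (RAB27A shRNA, 2 cell libraries), and of the extracellular vesicles (EVs) released by the knockout and control lines (2 libraries each), are set beside them where they bear on a result. Each line was grown with fetal bovine serum and then kept without serum, with bovine serum albumin in the medium, from which EVs were pelleted by ultracentrifugation while the cells were harvested. The replicates carry numbers but no culture of origin, so p-values measure the spread between libraries, which may be technical. In bulk RNA, fewer cells making a miRNA and less of it per cell cannot be told apart.

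A miRNA is cut from a hairpin in a longer primary transcript, first by Drosha in the nucleus and then by Dicer in the cytoplasm. One arm of the duplex (5p or 3p) is usually kept in an Argonaute protein while the other is degraded. Bases 2 to 8 of the mature strand, the seed, pair with target messenger RNAs, so miRNAs that share a seed form a family with overlapping targets. Hairpins that lie close together are often cut from a single transcript, which makes them a cluster. miR-122 is made in large amounts by hepatocytes and is known from liver and serum; in breast cancer cells it is a rare miRNA that has been studied as cargo of secreted vesicles.

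The sequences that define the experiment are those of the mature miR-122-5p strand, with its seed in capitals, and of the guides that target its gene.
miR-122-5p: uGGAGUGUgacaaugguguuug
guide 1: cacactaaatagctactgct
guide 2: cacactccacagctctgcta
In RefSeq's GRCh38.p14 annotation the MIR122 hairpin of 85 bases lies at chr18:58451074-58451158 on the plus strand, and miR-122-5p takes bases 15 to 36 of it. Guide 1 matches the plus strand at hairpin bases 62 to 81 (chr18:58451135-58451154) and guide 2 matches the minus strand across bases 4 to 23 (chr18:58451077-58451096). Each match is followed by AGG, which has the NGG form recognised by Streptococcus pyogenes Cas9, and guide 2 overlaps the start of the mature strand.

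No read of miR-122-5p was counted in either knockout library, against 5 and 4 counts in the control cells. The target was thus near the detection limit in control cells as well. A limit of 3 counts over both knockout libraries came to 0.15 CPM (counts relative to a library total of 1000000). Against it, knockout cells held at least 2.62-fold less miR-122-5p than control cells. That limit takes the 9 control counts as they stand, without their counting error. The adjusted p was 0.00817 (edgeR) in the fit of all 6 cell libraries. In a fit of only the 4 libraries compared, miR-122-5p did not pass the filter on low counts and was not tested. The RAB27A knockdown cells held 39 and 40 counts of it. In EVs, where miR-122-5p was more frequent, the counts were 4 and 3 for the knockout line, against 790 and 651 for the control line. The opposite arm, miR-122-3p, had no count in these 4 cell libraries and neither had the arms of miR-3591, which is transcribed from the other strand of the locus.

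The knockout libraries held 10169004 and 9836680 counts, and the control libraries 11840597 and 11066570. A single count was worth 0.0983 and 0.102 CPM in knockout cells, against 0.0845 and 0.0904 CPM in control cells, and 1087 of the 2588 miRNAs had no count in any of the 4. The 613 miRNAs that passed a filter on low counts held at least 99.98% of each library. Replicates correlated at 0.995 in knockout cells and 0.998 in control cells in log2 CPM (289 miRNAs of at least 10 CPM in these lines), and the SD of their log2 ratio was 0.330 in knockout cells and 0.221 in control cells. The lines had the profile known for mesenchymal breast cancer cells: the 4 strands of miR-221 and miR-222 summed to 76618 to 85991 CPM in knockout cells and to 110160 to 116458 CPM in control cells, against 133 to 145 CPM and 160.3 to 166 CPM for the epithelial miR-200 family.

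Of the 613 miRNAs tested, 382 differed between knockout and control cells (62.3%; edgeR quasi-likelihood test, Benjamini-Hochberg adjusted p under 0.05). Higher in knockout cells were 170 (27.7%) and lower were 212 (34.6%). Changes of at least 4-fold were more often falls: 34 miRNAs rose by that much (5.55%) and 79 fell (12.9%). The median log2 fold change over all 613 was −0.08, with quartiles of −1.15 and 0.76, and for 482 miRNAs (78.6%) the CPM of the knockout libraries did not overlap those of the control libraries. Fold changes were computed after scaling by the trimmed mean of M-values (TMM), which gave factors of 0.785 and 0.936 to the knockout libraries and 1.10 and 1.07 to the control libraries. A miRNA with a log2 fold change near 0 therefore has somewhat lower CPM in knockout than in control cells. With total counts alone the median log2 fold change dropped by 0.34, and calls were then 120 higher and 250 lower; for changes smaller than that shift the direction depends on the scaling. Counts of called members in a family or cluster are read against these shares of 27.7% higher and 34.6% lower.

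**Figure D1:**
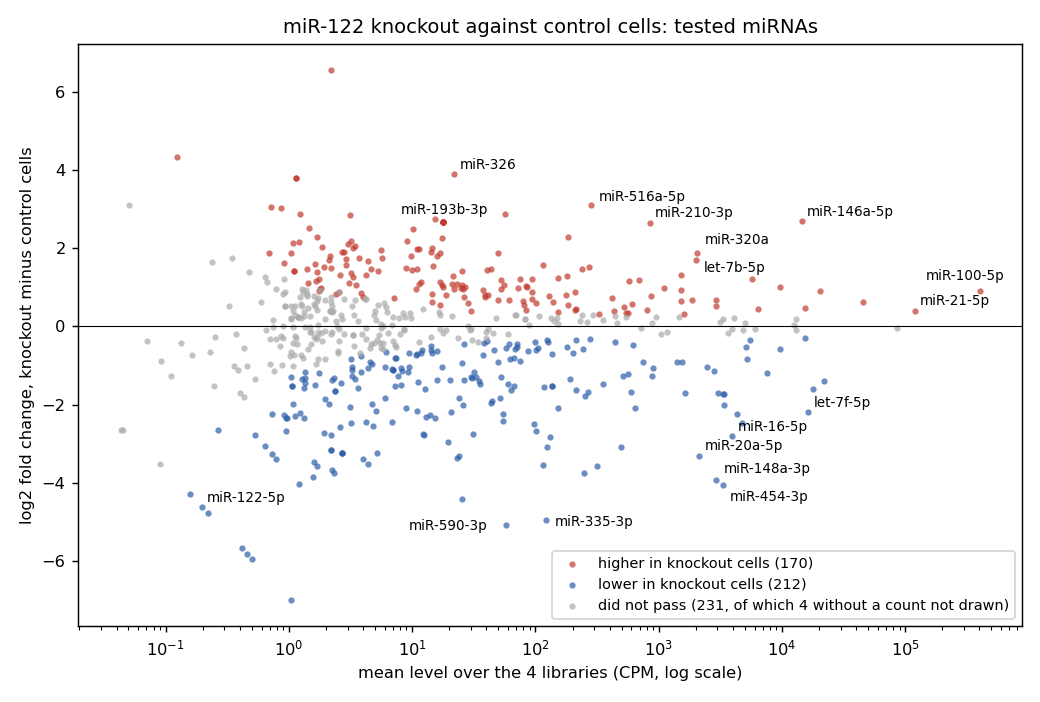
Log2 fold change, knockout minus control cells, plotted against the mean CPM over the 4 libraries for the miRNAs tested, each dot being 1 miRNA. The 212 lower miRNAs in blue reach further from 0 than most of the 170 higher ones in red among abundant miRNAs; miR-122-5p lies at the left edge because it had 9 counts in all.

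miR-100-5p, a repressor of mTOR signalling cut from the MIR100HG transcript, was the most abundant miRNA in each of the 6 cell libraries. It made up 49.5% and 45.6% of the counts in knockout cells, against 33.5% and 31.7% in control cells. Its share was higher in both knockout libraries, and its log2 fold change was 0.90 (SE 0.12, edgeR adjusted p = 2.76e-06). Of 3 strands of at least 10 CPM from MIR100 and the neighbouring MIRLET7A2, 2 were called higher and 1, the other arm miR-100-3p, lower. miR-125b-5p, encoded by MIR100HG and by a further gene, that of miR-125b-2-3p, made up 2.32% and 2.53% in knockout cells. Its share in control cells was 1.66% and 1.65% (log2 fold change 0.89, SE 0.11). miR-21-5p, which represses PDCD4, took 10.6% and 13.7% of knockout counts and 11.3% and 11.9% of control counts. Those shares overlapped, and its call (log2 fold change 0.40, SE 0.11) was lost without either control replicate, in a fit of only the 4 libraries compared (0.26) and with total counts, where the log2 fold change was 0.07. Among the other abundant miRNAs, let-7i-5p (0.61) and miR-30a-5p (0.47) were higher on the log2 scale, miR-26a-5p (−1.39), miR-27b-3p (−1.60), let-7f-5p (−2.20) and miR-29a-3p (−0.30) were lower, and miR-221-3p (−0.05) did not pass. The call of miR-30a-5p was lost with total counts and without either control replicate. The sign of miR-221-3p turned with DESeq2's size factors. The call of miR-29a-3p was lost with those size factors, with DESeq2 and without control replicate 2, and its sign turned after a correction for GC content (0.36).

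The largest falls took miRNAs that were abundant in control cells to a small part of their level. They are the 15 called miRNAs with the largest change among those at or above the median level of 7.92 CPM whose groups did not overlap, and levels are given as the CPM of both libraries of each line. miR-454-3p, of the miR-130 seed family, had 289 and 309.9 CPM in knockout cells, against 6329.5 and 6282 CPM in control cells (log2 fold change −4.06, SE 0.12, edgeR adjusted p = 7.32e-16). miR-148a-3p, known to repress DNA methyltransferases, had 299.8 and 274 CPM in knockout cells and 5579 and 5540.0 CPM in control cells (−3.92, SE 0.14). miR-20a-5p, of the growth-promoting miR-17-92 cluster, had 281 and 347 CPM in knockout cells, against 3836 and 4011 CPM in control cells (−3.31, SE 0.12). In each of the 3 the knockout libraries lay more than 10-fold under both control libraries. miR-590-3p fell furthest among miRNAs above the median level, to 1.57 and 3.86 CPM in knockout cells, against 114 and 113 CPM in control cells (−5.06, SE 0.23). miR-335-3p, from an intron of MEST and partner of a strand known as a metastasis suppressor in breast cancer, had 5.02 and 7.12 CPM in knockout cells and 233 and 239.6 CPM in control cells (−4.95, SE 0.18). miR-224-5p, from an intron of GABRE, had 80.5 and 87.6 CPM in knockout cells, against 882 and 925 CPM in control cells (−3.08, SE 0.13).
The 15 largest falls by the same rule also held all 4 strands of miR-374a and miR-374b (log2 fold changes of −4.40 to −2.82), both arms of miR-32 (−3.53 and −3.37), miR-577 (−3.30), miR-450b-5p (−3.09) and miR-33b-3p (−2.97). All 15 were still called after the GC correction described below, with a median of −2.50 in place of −3.53. Among them miR-374a-5p, which had no RefSeq sequence, received no correction and kept its value. In the RAB27A knockdown cells, compared with the same control libraries, their median log2 difference from control was −1.11; miR-454-3p (−0.08), miR-148a-3p (0.57) and miR-20a-5p (0.17) lay closer to control or above it there, and miR-577 (−4.02), miR-335-3p (−3.19) and miR-33b-3p (−2.87) far below it.

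Their sequences differ widely in composition, and are shown with those of the rises that follow because GC content comes up again below. Capitals mark the seed.
miR-590-3p: uAAUUUUAuguauaagcuagu
miR-335-3p: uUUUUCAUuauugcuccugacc
miR-454-3p: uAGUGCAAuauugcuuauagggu
miR-326: cCUCUGGGcccuuccuccag
miR-210-3p: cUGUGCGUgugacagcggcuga
GC content was 19.05% for miR-590-3p (chr7:74191253-74191273, plus strand), 36.4% for miR-335-3p (chr7:130496162-130496183, plus strand) and 34.8% for miR-454-3p (chr17:59137787-59137809, minus strand). It was 70% for miR-326 (chr11:75335108-75335127, minus strand) and 63.6% for miR-210-3p (chr11:568112-568133, minus strand). Over the 15 largest falls, of which 14 had a sequence, GC content ran from 19.05% to 72.7% with a median of 31.8%. Over the 15 largest rises it ran from 36.4% to 70% with a median of 54.5%; 6 of these 15 are a single sequence of the C19MC cluster described below, and with it counted once the median over 10 was 45.7%.

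Among the largest rises, miR-146a-5p stood out for its level. miR-146a-5p, induced by NF-kappaB and a repressor of TRAF6 and IRAK1, had 23567 and 24854 CPM in knockout cells, against 4790.3 and 4749 CPM in control cells (log2 fold change 2.69, SE 0.12, edgeR adjusted p = 7.45e-14). Its passenger strand miR-146a-3p moved with it, at 27.1 and 28.1 CPM in knockout cells and 8.19 and 6.51 CPM in control cells (2.25, SE 0.19). miR-146b-5p, the same seed from another gene, rose less (0.87, SE 0.13). The entries of miR-146 and miR-155 summed to 23835 and 25135 CPM in knockout cells and 4973 and 4923 CPM in control cells. In RAB27A knockdown cells they summed to 55032 and 52224 CPM, so that line lay above both others. Over the 15 largest rises, the median log2 difference of knockdown from control cells was 0.89, or 0.78 with identical counts taken once.
miR-210-3p, the classical target of hypoxia-inducible factor, had 1169 and 1652 CPM in knockout cells, against 275 and 288 CPM in control cells (2.65, SE 0.13). Its other strand miR-210-5p had 14.4 and 28.5 CPM in knockout cells and 6.59 and 7.5001 CPM in control cells (1.91, SE 0.24). Both strands lay above control in both knockout libraries, which themselves lay apart. In RAB27A knockdown cells the strands of miR-210 summed to 55.7 and 67.2 CPM, under the 282 and 296 CPM of control cells.
miR-326 had 24.0 and 56.9 CPM in knockout cells, against 3.63 and 3.07 CPM in control cells (3.88, SE 0.29). miR-193b-3p, a repressor of urokinase and cyclin D1, had 64.0 and 130.02 CPM in knockout cells, against 18.2 and 14.4 CPM in control cells (2.88, SE 0.22). For both the knockout replicates lay well apart, but neither came near the control level. miR-574-5p rose to 241 and 347 CPM in knockout cells, against 76.9 and 75.6 CPM in control cells (2.27, SE 0.15). miR-887-3p lay under the median level and outside the rule, and is named after its values were seen because its fitted change was the largest rise in the table. It had 49 and 39 counts in knockout cells, against 1 and 0 in control cells. The ratio of knockout to control CPM was 101 (95% counting interval 17.6 to 4025), and the RAB27A knockdown cells held 43 and 35 counts of it at a lower depth, so control cells held the least of it.

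The remaining places among the 15 largest rises belonged to the primate-specific C19MC cluster, 43 annotated hairpins at chr19:53666679-53762430 that are expressed mainly in placenta. Of its 62 entries, 24 had a count in the 4 libraries and 13 were tested; an entry could pass the filter through the knockout libraries alone. Those 13, which are 7 distinct sets of counts, all rose, with log2 fold changes of 1.87 to 3.80. Sequences of 3 members are shown because neighbours in this cluster differ so little that reads cannot always be told apart.
miR-516a-5p: uUCUCGAGgaaagaagcacuuuc
miR-1283: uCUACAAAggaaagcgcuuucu
miR-519a-5p: cUCUAGAGggaagcgcuuucug
miR-516a-5p had 469 and 518 CPM in knockout cells, against 73.3 and 72.0 CPM in control cells (3.10, SE 0.13). miR-1283 had 21.1 and 30.6 CPM in knockout cells and 4.39 and 5.33 CPM in control cells (2.73, SE 0.22). The sequence printed for miR-519a-5p is also that of miR-518e-5p, miR-519b-5p, miR-519c-5p, miR-522-5p and miR-523-5p, which have identical counts of 30.4 and 28.9 CPM in knockout cells, against 8.11 and 3.61 CPM in control cells (2.68, SE 0.26). miR-519a-3p (2.50, SE 0.27) and miR-522-3p (1.87, SE 0.15) rose as well. Summed over the cluster, knockout cells held 609.8 and 688 CPM, RAB27A knockdown cells 312 and 299 CPM and control cells 115 and 113 CPM, so the knockout line was the highest of the 3. The imprinted 14q32 cluster, a large miRNA cluster of another locus, had 89 entries, none of them tested, and summed to 1.28 and 2.44 CPM in knockout cells, against 0.845 and 0.994 CPM in control cells.

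Some miRNAs found in control cells had no count in the knockout cells. With a limit of 3 counts over both knockout libraries (0.15 CPM), 6 miRNAs with at least 20 counts in control cells had no count in knockout cells, and no miRNA with that many counts in knockout cells had none in control cells. miR-556-3p had 0 and 0 counts in knockout cells, against 28 and 20 in control cells, at least 13.97-fold lower. This and the limits that follow take the control counts as they stand, without their counting error. miR-125b-2-3p had 0 and 0 in knockout cells, against 11 and 12 in control cells (at least 6.70-fold lower), and miR-363-3p had 0 and 0, against 14 and 7 (at least 6.11-fold lower). The other three, miR-301b-5p (at least 8.44-fold), miR-6733-3p (at least 6.99-fold) and miR-548v (at least 5.82-fold), did not pass the filter on low counts and were not tested. miR-20b-5p, which lies in one X chromosome cluster with miR-363 and miR-106a, had 2 and 1 counts in knockout cells, against 33 and 35 in control cells, a ratio of control to knockout of 19.8 (95% counting interval 6.49 to 98.4). miR-106a-5p, the most frequent strand of that cluster, had 6.29 and 8.03 CPM in knockout cells, against 14.9 and 14.8 CPM in control cells (−0.72, SE 0.20; not called after the GC correction, −0.29). Of 10 entries of the cluster 4 were tested; 3 fell and none rose. Summed, the cluster held 6.79 and 8.13 CPM in knockout cells, 308 and 322 CPM in RAB27A knockdown cells and 19.6 and 19.2 CPM in control cells.

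Members of a seed family often moved by different amounts. Of the 257 miRNAs of at least 10 CPM with a RefSeq sequence, 83 fell into 29 groups that share a seed. In 13 groups the members' log2 fold changes spanned more than 1, in 7 more than 2, and 6 groups held members called in opposite directions. In 12 groups every member was called in one direction. The median span was 0.957, while the SD of log2 fold changes over all 257 was 1.47. The widest span, 4.75, was that of the miR-130 family, whose values are given further below. Members of 3 other families with wide spans are printed here with seeds in capitals. The first is let-7, whose members repress RAS genes, HMGA2 and LIN28.
let-7b-5p: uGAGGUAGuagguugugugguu
let-7i-5p: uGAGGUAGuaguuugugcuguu
let-7a-5p: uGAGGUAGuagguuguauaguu
let-7g-5p: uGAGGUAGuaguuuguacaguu
miR-98-5p: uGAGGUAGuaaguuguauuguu
let-7f-5p: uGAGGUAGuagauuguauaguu
Of the 9 guide strands of this seed above 10 CPM 2 rose, 3 fell and 4 did not pass. let-7b-5p (chr22:46113691-46113712, plus strand) had 2417 and 3416 CPM in knockout cells, against 1105 and 1129 CPM in control cells (1.71, SE 0.12, edgeR adjusted p = 1.53e-10). let-7f-5p had 4344 and 5289 CPM in knockout cells, against 27362 and 28347 CPM in control cells (−2.20, SE 0.11, edgeR adjusted p = 8.14e-13). let-7a-5p, the sequence closest to it, had 9757 and 12517 CPM in knockout cells and 14360.1 and 15325 CPM in control cells, and did not pass (−0.08, SE 0.11). let-7f-5p thus fell in both libraries while let-7b-5p rose, and let-7a-5p lay between them. Counted from base 1 at the 5′ end, let-7f-5p differs from let-7a-5p by the substitution G12A, miR-98-5p by G11A and A19U, let-7g-5p by G12U and U18C, and let-7b-5p by A17G and A19G. miR-98-5p (−1.68, SE 0.12) and let-7g-5p (−1.19, SE 0.12) fell, let-7i-5p (0.61, SE 0.13) rose, and let-7c-5p (0.38), let-7d-5p (−0.03) and let-7e-5p (0.08) did not pass. GC content was 31.8% in let-7f-5p and miR-98-5p, 36.4% in let-7g-5p and let-7a-5p and 45.5% in let-7b-5p. After the GC correction let-7f-5p was still lower (−0.71) and let-7b-5p higher (1.999), let-7g-5p (−0.12) and miR-98-5p (−0.20) no longer passed, and let-7a-5p passed as higher (0.99).

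The miR-17 seed family, which represses p21, spanned more than 3 log2 units across sequences that differ at few bases.
miR-106b-5p: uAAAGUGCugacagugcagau
miR-93-5p: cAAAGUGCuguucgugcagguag
miR-17-5p: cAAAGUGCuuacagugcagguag
miR-20a-5p: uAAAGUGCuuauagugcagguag
miR-17-5p (chr13:91350618-91350640, plus strand) had 786 and 899 CPM in knockout cells, against 1981 and 2001 CPM in control cells (−0.90, SE 0.11). miR-20a-5p (chr13:91351072-91351094, plus strand) is cut from the same transcript and differs from miR-17-5p by C1U and C12U, yet its log2 fold change was −3.31 (SE 0.12). miR-93-5p had 3949.9 and 4313 CPM in knockout cells, against 5467 and 5698 CPM in control cells, and did not pass (−0.09, SE 0.11). Neither did miR-106b-5p (0.09, SE 0.12), whose sign turned with total counts (−0.25).
miR-148a-3p, miR-148b-3p and miR-152-3p share a seed and nearly all other bases, and each is a single-gene miRNA on its own chromosome.
miR-148a-3p: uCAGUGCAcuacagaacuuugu
miR-148b-3p: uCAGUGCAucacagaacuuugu
miR-152-3p: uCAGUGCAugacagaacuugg
miR-148b-3p differs from miR-148a-3p by C9U and U10C, and had 1227 and 1139 CPM in knockout cells, against 4836 and 5002 CPM in control cells (−1.70, SE 0.13). miR-152-3p, with C9U, U10G and U20G and a shorter end, had 572 and 524 CPM in knockout cells, against 492 and 499.7 CPM in control cells (0.50, SE 0.13; not called with total counts, 0.14, nor without knockout replicate 1 or either control replicate). Of the 3, one fell steeply, one fell less and one was slightly higher in the same cells. GC content was 40.9% for both miR-148 strands and 47.6% for miR-152-3p.
miR-32-5p (−3.53) and miR-92a-3p (−1.14), which share the seed AUUGCAC with miR-25-3p and miR-92b-3p, fell by different amounts, and their group spanned 3.34.
In the miR-130 family, miR-454-3p (values above) and miR-301a-3p (−1.28, SE 0.17) fell strongly, miR-130a-3p fell less (−0.41, SE 0.13; not called without control replicate 2), miR-301b-3p did not pass (−0.17, SE 0.19) and miR-130b-3p rose (0.69, SE 0.14). The 5 members of the miR-15/16 seed AGCAGCA, which represses BCL2 and cyclins, did move one way. miR-16-5p had 672 and 935 CPM in knockout cells, against 7326 and 6797 CPM in control cells (−2.81, SE 0.12, edgeR adjusted p = 6.99e-14). miR-424-5p (−2.08), miR-15b-5p (−1.48), miR-195-5p (−1.47) and miR-15a-5p (−1.26) also fell.

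**Figure D2:**
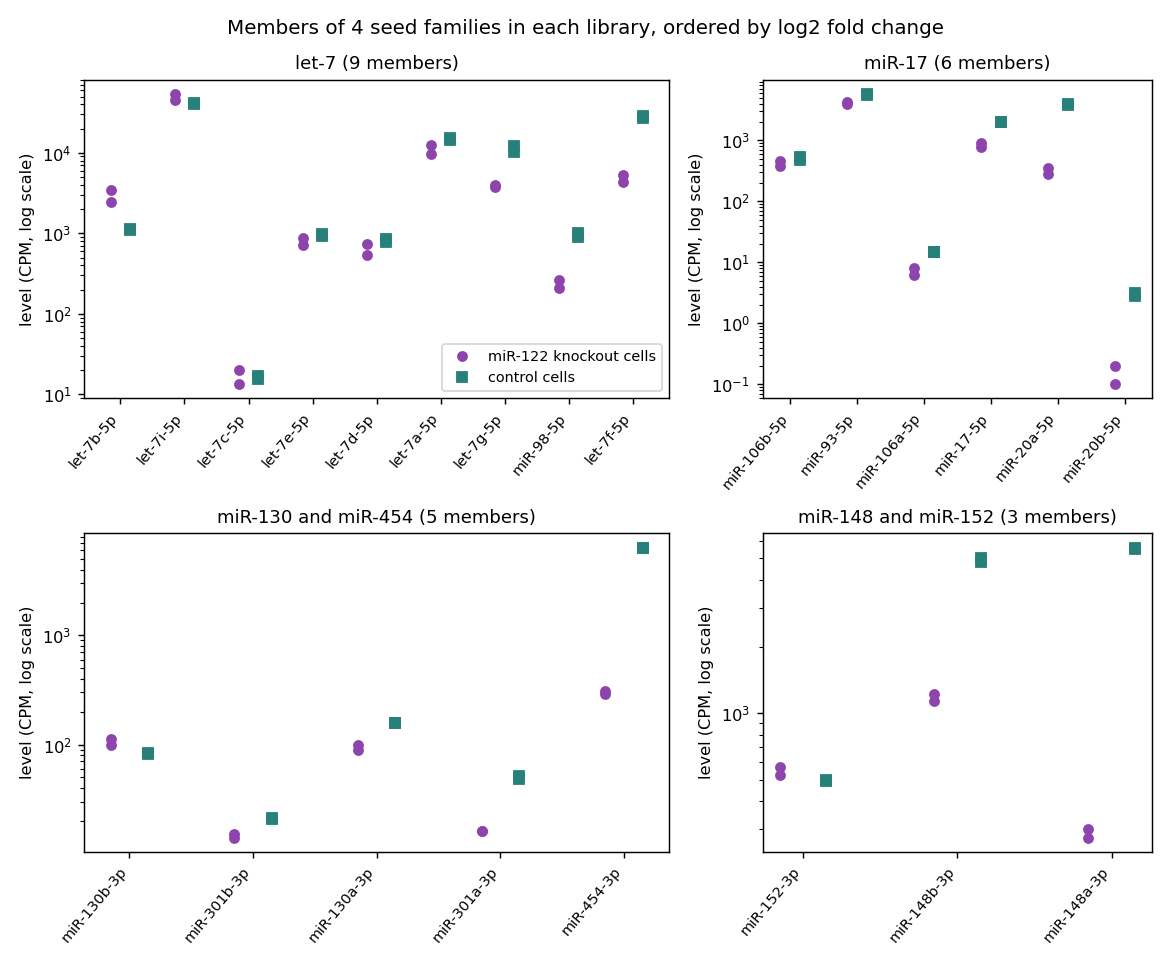
CPM in each library (log axis) of the members of 4 seed families, with knockout cells as circles left of control cells as squares and members ordered by log2 fold change from highest to lowest. Replicates lie close together, while members of a family differ in the size and direction of the gap between the lines, from let-7b-5p, higher in knockout cells, to let-7f-5p, miR-20a-5p, miR-454-3p and miR-148a-3p, lower in them.

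Closely similar sequences often differed in log2 fold change. Among miRNAs of at least 10 CPM, 34 pairs differed at no more than 2 positions, and their log2 fold changes differed by a median of 1.11. The difference was over 1 in 20 pairs and over 2 in 9. Several pairs share a member, such as let-7f-5p or miR-20a-5p, so the pairs are not independent. Pairs of unrelated sequences were not compared, and the SD of log2 fold changes over the 257 miRNAs was 1.47. miR-27a-3p and miR-27b-3p, which differ by U19C (miR-27b-3p first), both fell, to 961 and 1470.4 CPM in knockout cells against 8326 and 8365 CPM in control cells for miR-27a-3p (−2.46, SE 0.13) and to 6593 and 8324 CPM in knockout cells against 28633 and 28473 CPM in control cells for miR-27b-3p (−1.60, SE 0.11). miR-26a-5p and miR-26b-5p, which repress EZH2 and differ by C11U and C21U and in length, fell as well (−1.39 and −2.24). How reads that match more than 1 miRNA were assigned is not given in the sources used here, so part of the level of any close relative could be reads of its neighbour.

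Members of genomic clusters differed as well. Hairpins on one strand no more than 10 kb apart formed 25 clusters of 87 measured miRNAs of at least 10 CPM. Log2 fold changes spanned more than 1 in 17 clusters and more than 2 in 9, with a median span of 1.34. In 8 clusters members were called in opposite directions, and in 6 all were called in one direction. The widest was the miR-17-92 cluster (6 hairpins at chr13:91350605-91351391, plus strand), with a span of 4.36. Along the transcript, miR-17-5p fell (−0.90) and its other strand miR-17-3p rose (1.06, SE 0.15), at 67.9 and 69.4 CPM in knockout cells and 41.2 and 42.7 CPM in control cells. miR-18a-5p fell (−1.77, SE 0.13), miR-19a-3p was slightly lower (−0.39, SE 0.13), and miR-20a-5p fell most. The call of miR-19a-3p was lost with DESeq2's size factors, with DESeq2, with a filter at 10 CPM and without control replicate 2, and its sign turned after the GC correction (0.82). miR-19b-3p had 1639 and 2546 CPM in knockout cells and 1563 and 1727 CPM in control cells, which overlap, and passed as higher (0.67, SE 0.13), though not with total counts (0.35). miR-92a-3p had 1292 and 1674 CPM in knockout cells, against 3934 and 4260.1 CPM in control cells (−1.14, SE 0.11); it and miR-19b-3p are also encoded on the X chromosome. Of 11 tested strands of the cluster 2 rose and 6 fell, with a median of −0.39; with DESeq2's size factors 4 were higher and 5 lower. The related miR-106b-25 cluster in an intron of MCM7 had 3 of 6 strands higher and none lower (median 0.22), a direction that turned with total counts, where none was higher and 2 were lower (median −0.12).
In the miR-23a, miR-27a and miR-24-2 cluster (chr19:13836287-13836659, minus strand) the span was 3.50, and in the miR-23b, miR-27b and miR-24-1 cluster (chr9:95085208-95086088, plus strand) it was 2.54. miR-23a-3p had 3731 and 4791 CPM in knockout cells, against 6964 and 6590.2 CPM in control cells (−0.34, SE 0.11), a call lost with DESeq2's size factors, with DESeq2, after the GC correction and without control replicate 2. miR-23b-3p had 3153 and 4146 CPM in knockout cells, against 6706 and 6428 CPM in control cells (−0.52, SE 0.11). miR-24-3p, which both clusters encode, did not pass (0.03, SE 0.11). In each cluster the 3p strand of miR-27 fell further than its neighbours. miR-193b and miR-365a (chr16:14303967-14309371) also parted, since miR-193b-3p rose while miR-365a-3p, with the counts of miR-365b-3p, did not pass (0.18, SE 0.17).
Of the 6 clusters called in one direction, 4 fell: 3 on the X chromosome and the miR-15b and miR-16-2 cluster on chromosome 3. The others, which rose, were miR-181c with miR-181d and the identical C19MC entries. Of 14 tested strands of the miR-532, miR-500 and miR-660 cluster 11 fell and none rose (median −0.65), and of 10 in the miR-424, miR-503, miR-542 and miR-450 cluster 5 fell and none rose (median −0.90). In the second of these, 2 were higher and 4 lower after the GC correction (median −0.04). miR-503-5p had 449 and 441 CPM in knockout cells, against 1050.1 and 1071 CPM in control cells (−0.91, SE 0.12). Of 7 tested strands of miR-374, miR-545 and miR-421, 6 fell and none rose (median −3.39; −1.34 after the GC correction), among them miR-421 (−1.54, SE 0.14). Of 4 strands of miR-224 and miR-452, 3 fell and none rose (median −1.25), against 2 lower and 1 higher after the GC correction.

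**Figure D3:**
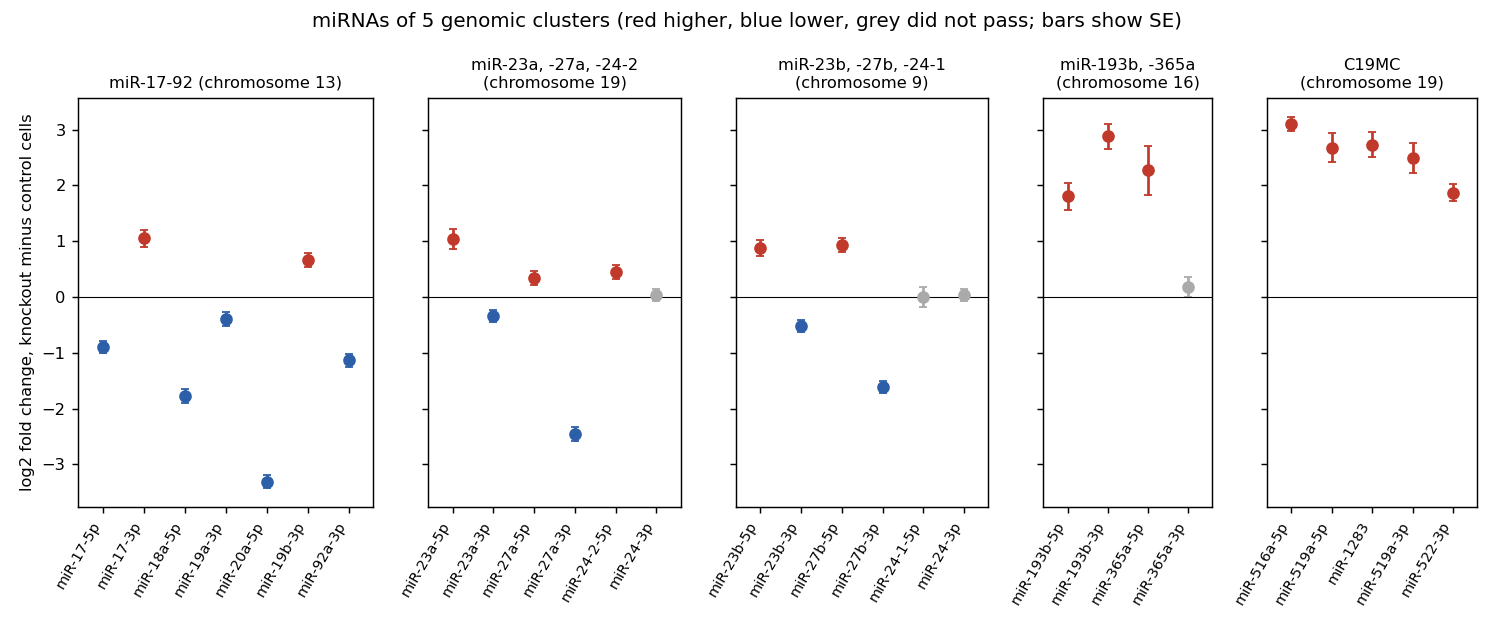
Log2 fold change, knockout minus control cells, with SE bars for miRNAs of 5 genomic clusters; red passed as higher, blue as lower and grey did not pass. Members of the miR-17-92 and both miR-23, miR-27 and miR-24 clusters lie on both sides of 0, whereas the C19MC members shown lie between 1.87 and 3.10.

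The 2 arms of a hairpin come from a single precursor, so they are made in equal number before one is discarded. Of 132 hairpins with both arms tested, both arms were called in 65: in the same direction in 41 and in opposite directions in 24. One arm was called in 51 and neither in 16. Over all 613 miRNAs tested, 27.7% were called higher and 34.6% lower. How many opposite calls these shares alone would give was not tested, so the counts describe the arms and no more. The arms differed by a median of 1.09 log2 units, by more than 1 in 71 hairpins and by more than 2 in 27, and the Spearman rho of their log2 fold changes across hairpins was 0.342, a description, since all come from the same libraries. Where both arms had at least 10 CPM (59 hairpins), both were called in 39, in the same direction in 21 and in opposite directions in 18. Without control replicate 2 the 24 hairpins with opposite calls came to 13.
miR-27b-5p had 1888 and 1748 CPM in knockout cells, against 1201 and 1231 CPM in control cells, and rose (0.93, SE 0.13), while miR-27b-3p fell (−1.60, SE 0.11). The 5p strand made up 22.3% and 17.4% of the counts of both arms in knockout cells, against 4.02% and 4.14% in control cells. miR-27a-5p had 556 and 561 CPM in knockout cells, against 538 and 580.2 CPM in control cells, overlapping values whose call as higher (0.34, SE 0.12) was lost with total counts, with no filter, after the GC correction, with only the 4 libraries compared and without knockout replicate 1 or either control replicate. With the fall of miR-27a-3p its share was 36.6% and 27.6% of both arms in knockout cells, against 6.07% and 6.49% in control cells. miR-140-5p had 52.4 and 65.8 CPM in knockout cells, against 206 and 218 CPM in control cells (−1.51, SE 0.14), while miR-140-3p, its more abundant strand, had 938 and 1049 CPM in knockout cells, against 733 and 729 CPM in control cells (0.78, SE 0.11). The 5p share of miR-140 was 5.29% and 5.90% in knockout cells, against 21.9% and 23.0% in control cells, so the balance of this hairpin lay further towards 3p in knockout cells, where that of both miR-27 hairpins lay further towards 5p. let-7b-5p rose and let-7b-3p was lower (−0.60, SE 0.23), a call lost with DESeq2's size factors, with DESeq2, after the GC correction, with a filter at 10 CPM and without knockout replicate 1 or control replicate 2. Both arms of miR-335 fell, but the 5p arm, the known metastasis suppressor, was at 106 and 104 CPM in knockout cells, against 434 and 423 CPM in control cells (−1.68, SE 0.14; −0.07 after the GC correction), so the 3p arm fell 3.28 log2 units further and the 5p share was 95.5% and 93.6% in knockout cells, against 65.0% and 63.8% in control cells. miR-222-5p (−2.08, SE 0.13) and miR-221-5p (−1.05, SE 0.15) fell further than the abundant guide strands miR-222-3p (−0.57, SE 0.11) and miR-221-3p, which repress p27.

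**Figure D4:**
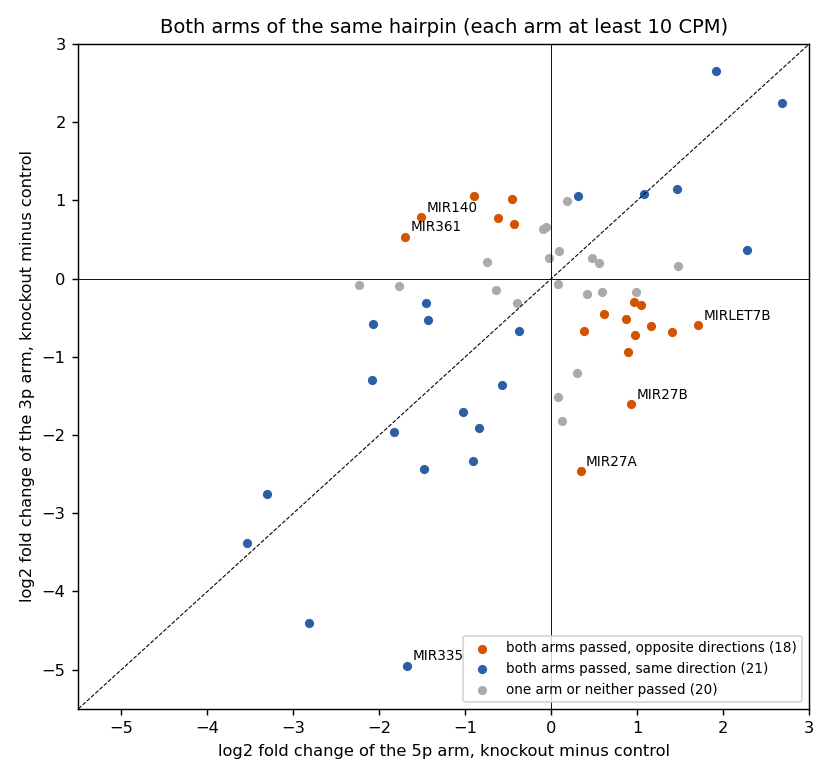
Log2 fold changes, knockout minus control cells, of the 5p arm (horizontal) and the 3p arm (vertical) of 59 hairpins whose arms both had at least 10 CPM; the dashed line marks equal change. The 18 hairpins in orange lie in the quadrants of opposite direction, among them MIR27B, MIR140 and MIRLET7B, and MIR335 lies far under the line.

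Log2 fold changes moved with the GC content of the mature strand. Across the 535 of 613 tested miRNAs with a RefSeq sequence (87.3%), Spearman's rho was 0.449, and it was 0.451 over the 263 of at least 10 CPM; miRNAs share the 4 libraries, so this is a description across miRNAs. From each knockout replicate against each control replicate rho was 0.421 to 0.437. Over the miRNAs of at least 10 CPM alone, the log2 ratio of replicates of one line gave 0.0657 in knockout cells and 0.173 in control cells. In the quartile group of lowest GC content (12.5% to 40.9%) the median log2 fold change was −1.29, with 14 of 134 miRNAs higher and 79 lower. In the second quartile group it was −0.31 (30 higher, 50 lower), in the third 0.25 (55 higher, 35 lower of 133), and in the quartile group of highest GC content (59.1% to 95.2%) 0.50 (52 higher, 20 lower). The trend was one of G more than of C: rho was 0.336 with the share of G, 0.138 with C, −0.268 with A and −0.262 with U. It was present in bases 1 to 8 (0.339), in bases 9 to 16 (0.366) and from base 17 on (0.206), whereas length gave −0.0856. RAB27A knockdown cells against the same control libraries gave a rho of 0.00719, with medians by group of −0.25, −0.16, −0.00 and −0.08. The EVs of the knockout line against control EVs gave 0.122 over 377 miRNAs, with medians by group of −0.01, 0.21, 0.18 and 0.20. Knockout cells against knockdown cells gave 0.369. A correction that fits each library's counts as a smooth function of GC content left 189 miRNAs higher and 181 lower, and a rho of 0.0386. Whether GC content has a part in any single fold change was not tested. The difference between arms in GC content had a rho of 0.198 with their difference in log2 fold change over the 59 hairpins.

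**Figure D5:**
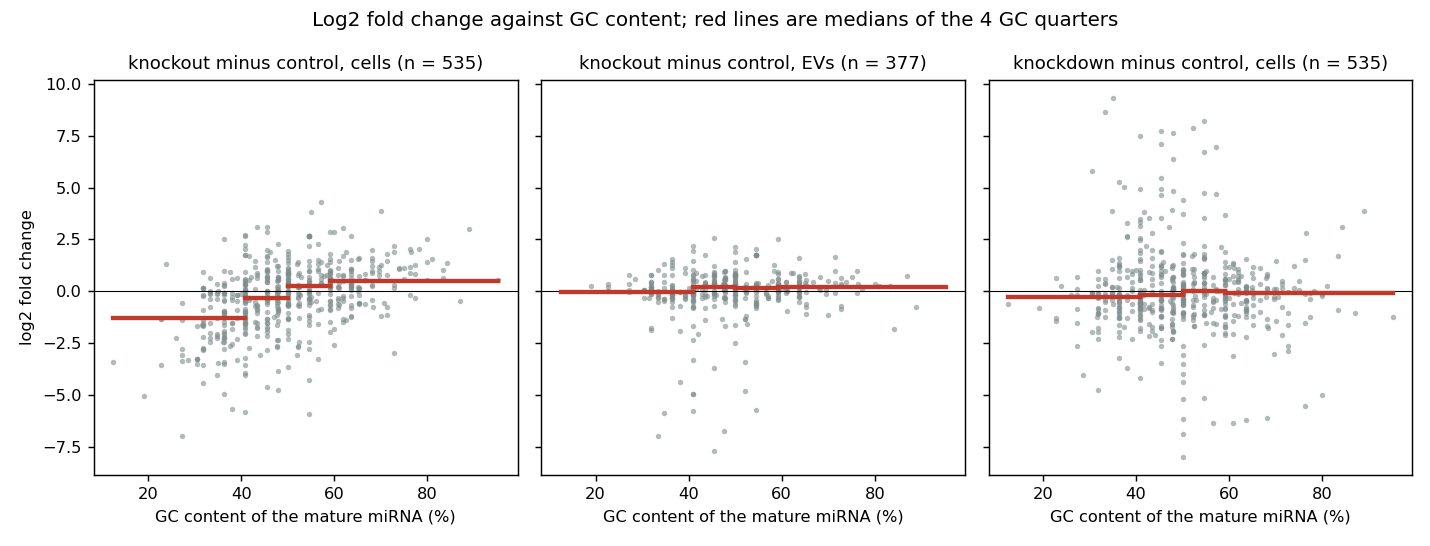
Log2 fold change against the GC content of the mature strand for 3 comparisons, 1 dot per miRNA, with red lines at the median of each GC quartile group. The medians climb from group to group in knockout minus control cells (−1.29 to 0.50) and stay between −0.25 and 0.21 in the EVs and in the knockdown cells.

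Other families were counted in the same fit. All 3 tested strands of the miR-146 and miR-155 list, each of them from miR-146a or miR-146b, were higher, as were both of miR-21 (1 with total counts) and both of miR-210. Of 10 tested strands of the miR-181 family, regulators of lymphocyte differentiation, 6 rose and none fell (median 0.61; 4 higher and 1 lower with total counts); miR-181a-5p had 7041 and 7654 CPM in knockout cells, against 4039.8 and 3996 CPM in control cells (1.21, SE 0.11), and miR-181c-5p rose more (2.01, SE 0.20). Of 8 strands of miR-193 and miR-365, 6 rose and none fell (median 1.62). Of the 6 strands of miR-320 and miR-484, known for precursors that bypass Drosha, 5 rose and 1 fell (median 1.51). miR-320a had 2837 and 3299 CPM in knockout cells, against 1076 and 1033 CPM in control cells (1.88, SE 0.11), and miR-484 had 419.7 and 462 CPM in knockout cells, against 1276 and 1399 CPM in control cells (−1.26, SE 0.12). The pair moved in opposite directions.
All 4 tested strands of miR-10 and miR-196, encoded within the HOX clusters, fell (median −1.37), miR-10a-5p by 0.84 (SE 0.11). These entries summed to 3117 and 3257 CPM in knockout cells and 7504 and 7053 CPM in control cells. RAB27A knockdown cells held 2258 and 2108 CPM of them, less than either. Of 7 strands of miR-34, a target of p53 in other cells, and of miR-449, 4 fell and none rose. miR-34c-5p had 489.6 and 494 CPM in knockout cells, against 1277 and 1329 CPM in control cells (−1.06, SE 0.12). miR-34a-5p did not pass (0.28, SE 0.14). The miR-34 and miR-449 entries summed to 692 and 794 CPM in knockout cells, 541 and 557 CPM in knockdown cells and 1549 and 1607 CPM in control cells. Of 27 tested entries of the miR-548 family, whose hairpins derive from mobile elements, 17 fell and none rose (median −1.17); of 22 distinct counts 12 fell, and after the GC correction 13 entries were lower and 2 higher. The miR-26 family had 4 of 5 strands lower and none higher (median −2.16; −0.89 after the GC correction). In knockdown cells the miR-26 family summed to 28391 and 28236 CPM, between knockout cells (11707 and 10869 CPM) and control cells (40517 and 41492 CPM). The miR-548 entries summed to 104 and 96.8 CPM there, near the 102 and 114 CPM of control cells. The miR-29 family (4 higher, 1 lower of 7, median 0.33), the miR-30 family (4 higher, 2 lower of 11, median 0.26) and the miR-99, miR-100 and miR-125 strands (6 higher, 2 lower of 11, median 0.41) were mixed, as was the miR-183, miR-96 and miR-182 cluster (4 higher, 1 lower of 5, median 0.53). The splits of these 4 groups depended on the scaling. With total counts the miR-29 family had 2 higher and 3 lower (median 0.005), the miR-30 family 2 and 3 (−0.07), the miR-99, miR-100 and miR-125 strands 4 and 3 (0.07) and the miR-183 cluster 2 and 1 (0.18). After the GC correction the miR-29 family had 6 higher and none lower (0.90) and the miR-183 cluster 5 and none (1.11).

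Markers of other cell types were mostly rare, and several moved. Both arms of the endothelial miR-126, from an intron of EGFL7, summed to 22.3 and 24.5 CPM in knockout cells, against 113 and 109.8 CPM in control cells, and fell (miR-126-3p −1.96, SE 0.16; miR-126-5p −1.82, SE 0.18). Of 11 blood cell entries 4 were tested, 3 fell and none rose. The largest falls were of both miR-142 strands. miR-142-3p had 7 and 13 counts in knockout cells, against 56 and 65 in control cells. miR-142-5p had 4 and 12, against 67 and 62. miR-223 and miR-150-3p had no count in these libraries. The sum of the entries was 171 and 168 CPM in knockout cells, against 289 and 275 CPM in control cells. miR-486-5p carried most of that sum (−0.36, SE 0.14), and its call was lost with DESeq2's size factors, with DESeq2 and without knockout replicate 2 or either control replicate. The other red cell entries were rare: miR-486-3p had 23 and 41 counts in knockout cells, against 47 and 58 in control cells, and did not pass, miR-451a had 2 and 14 counts in knockout cells, against 3 and 9 in control cells, and miR-144-3p 0 and 9, against 2 and 1. Of 10 entries for stroma and smooth muscle 4 were tested and none passed, at sums of 9.74 and 12.2 CPM in knockout cells and 16.2 and 18.2 CPM in control cells, with miR-143-5p and miR-214-5p at 0. Of 6 liver entries 3 were tested and 2 fell, miR-122-5p and miR-194-5p, and the sum, mostly miR-192-5p and miR-194-5p, was 203 and 198 CPM in knockout cells, against 264 and 279 CPM in control cells. None of the 10 heart and skeletal muscle entries was tested. Among 10 neuronal entries 6 were tested, 1 rose and 3 fell, and miR-124 had no count. miR-138-5p rose, with 1732 and 2336 CPM in knockout cells, against 1027 and 1027 CPM in control cells (1.31, SE 0.12). miR-9-3p fell, with 294 and 216 counts in knockout cells, against 1200 and 1117 in control cells. So did miR-128-3p (708 and 1083, against 2002 and 2152) and miR-138-1-3p (164 and 223, against 386 and 376). In the epithelial miR-200 family 1 of 7 tested strands rose and 1 fell (3 and 1 after the GC correction); miR-200c-3p had 5.90 and 6.51 CPM in knockout cells, against 35.6 and 35.4 CPM in control cells (−2.18, SE 0.19), and miR-200b-3p did not pass (0.29, SE 0.14). The part of other cells in these values was not tested.

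Set against the RAB27A knockdown cells, the knockout cells differed in 395 of 613 miRNAs (64.4%), 188 higher and 207 lower. The knockdown cells differed from control cells in 330 (53.8%), which came to 196 without knockdown replicate 1 and 218 without knockdown replicate 2. These comparisons share libraries with that of knockout and control cells and are not independent of it. The largest differences between knockout and knockdown cells came from miRNAs that were abundant in the knockdown line and at or near 0 in knockout cells. miR-363-3p had 0 and 0 counts in knockout cells, against 528 and 512 in knockdown cells, at least 1101-fold lower. miR-125b-2-3p had 0 and 0 in knockout cells, against 321 and 342 in knockdown cells (at least 702-fold lower), miR-708-5p 0 and 0, against 117 and 118 (at least 249-fold), and miR-767-5p 0 and 0, against 63 and 88 (at least 159.8-fold). miR-95-3p had 2 and 9 counts in knockout cells, 949 and 1046 in knockdown cells and 87 and 99 in control cells, with a log2 difference from knockdown cells of −8.82 (SE 0.28). Higher in knockout than in knockdown cells were miR-34a-5p (5.49, SE 0.20), miR-210-3p (4.86, SE 0.15), miR-210-5p (4.54, SE 0.42), miR-27b-5p (4.40, SE 0.15) and miR-3681-5p (4.30, SE 0.28). Of these, miR-34a-5p and miR-3681-5p did not differ from control by a called amount in knockout cells (0.28 and −0.07) and lay far under it in knockdown cells (−5.21 and −4.37).

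The EVs of the knockout and control lines were compared in a fit of their own. Between them 201 of 488 miRNAs differed (41.2%), 92 higher and 109 lower in knockout EVs, and 127 in all without control EV replicate 2. Of the 15 largest falls in cells, 13 did not pass in EVs, 1 was lower and 1 higher there, with a median log2 fold change of 0.09. miR-454-3p had 3700.2 and 3719.9 CPM in knockout EVs, against 4453 and 4114 CPM in control EVs (0.17, SE 0.10), and miR-20a-5p had 2079.5 and 2135 CPM in knockout EVs, against 3209 and 2897 CPM in control EVs (−0.16, SE 0.11). EV fold changes were computed after TMM scaling too, so that of miR-454-3p is positive although its CPM were lower in both knockout EV libraries. For small changes in EVs the direction therefore depends on the scaling. With total counts 219 miRNAs differed in EVs. miR-148a-3p was the exception that was lower, with 668 and 690.0 CPM in knockout EVs, against 4289.7 and 4821 CPM in control EVs (−2.37, SE 0.15). Of the 15 largest rises in cells, 12 were higher, 1 lower and 2 did not pass in EVs, with a median of 1.75; with the 6 C19MC entries of identical counts taken once, 7 of 10 were higher, with a median of 1.28. miR-146a-5p (1.02, SE 0.11) and miR-516a-5p (1.73, SE 0.16) were higher in knockout EVs, miR-210-3p (−0.07, SE 0.17) and miR-193b-3p (−0.35, SE 0.18) did not pass, and miR-326 was lower (−1.14, SE 0.37). miR-126-3p was lower in EVs too, with 275 and 254 counts in knockout EVs, against 3255 and 3261 in control EVs (−3.72, SE 0.14). miR-486-5p had 148 and 128 CPM in knockout EVs, against 2560.2 and 2671 CPM in control EVs (−3.86, SE 0.13). The difference between cells and EVs in these changes was not tested.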

How the data were processed

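The authors sequenced size-selected small RNAs with a 5′-monophosphate-dependent ligation protocol on a Genome Analyzer IIx, per the labels' protocols. They used cutadapt and Bowtie with the hg19 build, per the submitters' processing notes; the sources used here give no versions and do not say how reads matching several miRNAs were assigned. The deposited values are raw read counts per mature miRNA, without molecular identifiers, for 12 libraries of 6 groups of 2.

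Counts of the 6 cell libraries were fitted together with edgeR 4.0.16 (limma 3.58.1, R 4.3.3) after its default filter on low counts and TMM scaling. The fit was quasi-likelihood, robust, 1 coefficient per group, with Benjamini-Hochberg adjustment and a threshold of 0.05. The EV libraries had a fit of their own. CPM are counts relative to a library total of 1000000, and the SE of a log2 fold change is its size divided by the square root of the F statistic. Limits for counts of 0 use 3 counts over both libraries and take the other group's counts as they stand, without their counting error. Intervals of ratios are exact binomial, of arm shares Wilson. Limits and intervals cover no more than counting error, since reads are not independent molecules. The widest Wilson interval of a 5p share of miR-140, for example, was 22.2% to 23.8%. Depth was 9836680 to 11840597 counts in the 4 libraries compared and 3140610 to 3159478 in the knockdown cells.

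On simulated counts for 590 miRNAs in this comparison, 77.9% of 95 2-fold changes and 96% of 100 4-fold changes were recovered. There 1.73% of calls were false. The simulation changed far fewer miRNAs than were called in the data, in random directions and without a trend with GC content. Its share of false calls is therefore not an estimate for the calls made in the data. Sequences and coordinates come from RefSeq (GRCh38.p14), which held 2281 of the 2588 miRNAs by name; coordinates are not those of the files' build. The GC correction is a loess offset per library on GC content, and miRNAs without a sequence received none.

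The groups, members and lists were chosen with earlier results of these data known. Named miRNAs are the arms of miR-122 and miR-3591, the 15 largest called changes per direction at or above the median level and without overlap, the 10 most abundant, up to 4 of highest level per list, those with 0 counts in one group and at least 20 in the other, the 5 hairpins of at least 10 CPM per arm whose arms differed most, and the 5 largest differences per direction from knockdown cells. miR-887-3p falls outside this rule. Alternatives were other size factors, total counts, no filter, a filter at 10 CPM, DESeq2 1.42.0, a replicate block, the GC correction, identical rows counted once, only the 4 libraries compared, and leaving out each library.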

Additional observations from a re-analysis of the deposited data

Results flagged for a closer look

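Flagged were 12 of the 112 miRNAs named with a fold change and tested in both fits. In these, the CPM of both knockout libraries lay on one side of both control libraries in cells and on the other side in EVs. Their fitted log2 fold changes had opposite signs. The difference itself was not tested, and groups of 2 allow no test for outlying samples. Higher in knockout cells with a negative value in EVs were miR-326 (log2 fold change 3.88 in cells, −1.14 in EVs), miR-193b-3p (2.88, −0.35), miR-210-3p (2.65, −0.07), miR-138-5p (1.31, −0.08), miR-21-3p (1.19, −0.01), miR-140-3p (0.78, −0.34) and miR-130b-3p (0.69, −0.35). Of those EV values only that of miR-326 and miR-140-3p passed. Called lower in knockout cells and higher in knockout EVs were miR-27b-3p (−1.60 in cells, 0.56 in EVs) and miR-23b-3p (−0.52, 0.96). let-7a-5p (−0.0842, 0.81), miR-221-3p (−0.0496, 0.57) and let-7d-5p (−0.0321, 0.59) were called higher in EVs and did not pass in cells, where their sign depends on the scaling.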

How the results depend on the processing

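Of 1478 values recomputed for the 115 miRNAs named with a fold change in the text, 1358 kept their direction and their side of the threshold, 46 lost a call, 32 gained one and 42 changed sign; 83 of the 99 called miRNAs were called in one direction under every setting. The count of 382 stood at 391 with DESeq2's size factors in edgeR, 370 with total counts and also after the GC correction, 395 with no filter, 326 with DESeq2, 376 with identical rows counted once, 361 with only the 4 libraries compared and 319 to 420 without 1 library; with a filter at 10 CPM, which tests fewer miRNAs, it was 238, of which 121 lower. The split of calls was 196 higher and 195 lower with those size factors, 164 and 162 with DESeq2, 189 and 181 after the GC correction, and 120 and 250 with total counts. Same-numbered libraries were not shown to be pairs (2 per group; correlation of their deviations 0.189 in cells, −0.100 in EVs). With a replicate block the count was 377, and 181 in EVs; with crossed EV numbers, added after seeing the data, it was 175. Leaving out libraries gave 287 to 422 against knockdown cells (395 with all), 196 to 273 for knockdown against control cells (330 with all) and 127 to 189 in EVs (201 with all). Hairpins with arms called in opposite directions numbered 13 to 28 without 1 library. The rho with GC content was 0.335 with no filter, 0.0386 after the GC correction and 0.412 to 0.438 without 1 library; the cause of the first was not tested.

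Of the 17 miRNAs whose sign changed, miR-29a-3p, miR-19a-3p and miR-27a-5p had been called. With DESeq2's size factors and with DESeq2, miR-221-3p came to 0.0466, miR-93-5p to 0.0058, miR-3681-5p to 0.0287, let-7a-5p to 0.0178 and let-7d-5p to 0.0711. After the GC correction, miR-221-3p was 0.0753, miR-29a-3p 0.36, miR-19a-3p 0.82, miR-301b-3p 0.64, miR-24-3p −0.11, let-7a-5p 0.99 and let-7d-5p 0.63. With total counts, miR-106b-5p was −0.25, miR-27a-5p −0.003, miR-24-3p −0.31, miR-365a-3p and miR-365b-3p −0.15, miR-181b-5p −0.0879, miR-200b-3p −0.0533, miR-34a-5p −0.0422 and let-7e-5p −0.26. With no filter, miR-106b-5p was −0.0322, miR-24-3p −0.0932 and let-7e-5p −0.0447, and with only the 4 libraries −0.0462, −0.107 and −0.0578. let-7d-5p was 0.0184 with the filter at 10 CPM. Without 1 library, miR-221-3p ran from −0.38 to 0.15, miR-106b-5p from −0.10 to 0.17, miR-24-3p from −0.114 to 0.0793, miR-365a-3p and miR-365b-3p from −0.0679 to 0.36, miR-3681-5p from −0.26 to 0.0233 and let-7d-5p from −0.21 to 0.0418. For 16 miRNAs named with a fold change, the call did not hold under every setting that tested them. Of these, let-7g-5p, miR-98-5p, miR-335-5p and miR-106a-5p lost it with the GC correction alone. miR-708-5p and miR-130a-3p lost it without control replicate 2 alone, and miR-19b-3p with total counts alone. The others lost it under 3 to 7 settings: miR-27a-5p under 7, let-7b-3p under 6, miR-19a-3p and miR-486-5p under 5, miR-21-5p, miR-23a-3p, miR-29a-3p and miR-152-3p under 4 and miR-30a-5p under 3. Counting depth limits miR-122-5p, with 9 counts in all in the cells compared.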
